A study of Mus musculus with 18 samples.

Results

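The 9 genes described here encode the adaptor protein Cd2ap, its paralog Sh3kbp1 (also called Cin85) and 7 of their known binding partners: the ubiquitin ligases Cbl and Cblb, the capping protein subunits Capza1, Capza2 and Capzb, the PI3-kinase regulatory subunit Pik3r1, and cortactin, encoded by *Cttn*. The members were found by gene symbol in the deposited array table, where they are 9 of 22909 gene symbols. The rule names the genes and uses no measured value, but earlier results of these data were known when it was set. A transcript cluster is the set of probes read out together for 1 gene. The 9 genes had 10 clusters, and a gene with several was read from the one with the highest mean signal.

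The study profiled the 3 main cell types of the mouse glomerulus on 18 Affymetrix Mouse Gene ST arrays, 3 in each of 6 groups. Cells were sorted by green fluorescence from glomeruli of mice 5 weeks of age. Mesangial cells carried a *Meis1-GFP* reporter, endothelial cells *Tie2-GFP*, and podocytes a reporter line of their own. Cell type and reporter line therefore cannot be told apart. The mutant animals were Cd2ap-/-, with a germline allele, from the line B6.129X1-Cd2ap tm1Shaw/J, so every cell of the animal carried it. The genotype field of the sample records calls all controls wildtype. The titles of the 3 mesangial ones say control where the others say wild type, and the column headers of the 3 mesangial controls read +/- and those of the other controls read +/+. The mesangial controls are therefore called controls here. Arrays within a group are called A, B and C by column order, which carries no meaning beyond identity. The series text names biological triplicates. Whether animals were pooled for an array is not given in the sources used here, so the tests below measure the spread between these arrays. Cells of one type in smaller number and less RNA per cell cannot be told apart in such samples.

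Cd2ap is an adaptor with SH3 domains that holds nephrin at the slit diaphragm, the filtration junction between podocyte foot processes, and links it to actin and to endocytosis. Sh3kbp1 has the same domain plan and is best known for recruiting endocytic proteins to growth factor receptors tagged by Cbl ligases. Both adaptors bind the heterodimeric capping protein, which closes the fast growing end of actin filaments. They also bind the p85 subunit that couples receptors to PI3-kinase and Akt, a survival pathway in podocytes.

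All signals below are linear RMA intensities, and values of different genes are not set against each other. Array medians lay between 62.8 and 71.6, and between 9697 and 10097 of 28856 clusters per array reached a signal of 100, the minimum for a test. Of the members, 8 reached 100 in every array, and *Sh3kbp1* lay below it in 5 arrays. The 10 podocyte markers summed to between 13202 and 16622 in the podocyte arrays, against at most 1845 in the other arrays except 1. The 10 endothelial markers summed to between 16440 and 18946 in endothelial arrays. The 10 mesangial markers summed to between 12075 and 13193 in control mesangial arrays and to between 9396 and 10401 in mutant ones. Every mutant sum there lay below every control sum, and the part of that in the mesangial genotype differences was not tested. Podocyte arrays were not free of endothelial or mesangial markers, with endothelial sums between 882 and 6183 and mesangial sums between 1356 and 4960. The exception in podocyte markers was control mesangial array C, with a podocyte marker sum of 4106 and an endothelial sum of 8533, against at most 1209 and 3539 in the other mesangial controls. Its tubule marker sum was 2053 against 567 and 560, and mutant mesangial array B stood apart in leukocyte markers (3674 against 2090 and 2091). The part of these in the mesangial genotype differences was not tested. The members' genotype and cell type differences that rest on this array, and those list values that it moves most, are also given without it. Among replicates, the mutant podocyte arrays correlated least, with Pearson's r between 0.967 and 0.971 over all clusters, and the other groups had r between 0.980 and 0.992. Of 5 sex-linked markers, 4 were below 100 in all 3 mutant mesangial arrays and in all 3 wild type endothelial arrays. In control mesangial and mutant endothelial cells 0 were below 100 in all 3 arrays. The part of that in the mesangial and endothelial genotype differences, and in contrasts with them, was not tested.

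The promoter windows of 8 of the 9 members were found in the RefSeq table for GRCm38.p6, each from 250 bases before to 50 bases after a transcript start. For *Cttn* no window was matched. Those of *Cd2ap* and of *Sh3kbp1*, *Cblb* and *Pik3r1* are shown, since the last 3 were each called lower in endothelial than in mesangial cells in both genotypes, as given below. Where a gene has several starts, the most upstream is printed. Capitals mark matches on either strand to the GC box GGGCGG or to CCAAT, and TATAAA was searched as well without a match in these windows.
Cd2ap, chr17:42876375-42876674, minus strand: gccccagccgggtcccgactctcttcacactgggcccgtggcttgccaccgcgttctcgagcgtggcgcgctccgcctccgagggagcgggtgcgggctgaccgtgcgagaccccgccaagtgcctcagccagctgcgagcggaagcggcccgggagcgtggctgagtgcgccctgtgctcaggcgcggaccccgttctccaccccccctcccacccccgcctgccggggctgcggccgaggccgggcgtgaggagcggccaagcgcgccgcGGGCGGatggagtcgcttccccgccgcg
Sh3kbp1, chrX:159627022-159627321, plus strand: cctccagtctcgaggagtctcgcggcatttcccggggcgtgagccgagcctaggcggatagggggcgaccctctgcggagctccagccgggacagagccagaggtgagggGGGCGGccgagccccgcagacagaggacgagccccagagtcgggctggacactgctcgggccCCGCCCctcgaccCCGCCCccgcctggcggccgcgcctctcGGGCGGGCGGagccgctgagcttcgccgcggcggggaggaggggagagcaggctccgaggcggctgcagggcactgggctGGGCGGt
Cblb, chr16:52031299-52031598, plus strand: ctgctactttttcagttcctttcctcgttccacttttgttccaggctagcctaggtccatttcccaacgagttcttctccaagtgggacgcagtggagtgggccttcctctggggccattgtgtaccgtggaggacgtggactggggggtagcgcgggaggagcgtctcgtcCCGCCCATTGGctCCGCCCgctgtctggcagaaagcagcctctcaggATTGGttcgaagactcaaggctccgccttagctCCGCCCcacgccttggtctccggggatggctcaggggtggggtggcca
Pik3r1, chr13:101768168-101768467, minus strand: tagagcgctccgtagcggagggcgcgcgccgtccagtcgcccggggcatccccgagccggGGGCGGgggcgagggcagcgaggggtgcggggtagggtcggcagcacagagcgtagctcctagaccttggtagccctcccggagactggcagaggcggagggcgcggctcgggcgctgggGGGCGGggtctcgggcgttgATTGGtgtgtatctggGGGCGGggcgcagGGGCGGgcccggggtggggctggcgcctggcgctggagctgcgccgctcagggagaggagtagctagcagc
Among 32851 windows of the same length, 35.7% held the GC box, 37.4% held CCAAT and 13.6% held TATAAA. The *Cd2ap* window held 1 GC box and 41 CG dinucleotides, against a median of 7 over all windows. The *Sh3kbp1* window held 6 GC boxes and 34 CG, the *Pik3r1* window 4 GC boxes, 1 CCAAT and 34 CG, and the *Cblb* window 3 GC boxes, 2 CCAAT and 17 CG. These counts differed by start. *Sh3kbp1* has 4 starts, and the windows not printed held 33, 6 and 2 CG and 6, 0 and 1 GC boxes, the last of them also 1 TATAAA. *Pik3r1* has 2 starts, and the window not printed held 6 CG, 0 GC boxes and 1 TATAAA. The windows of *Cbl*, *Capza1*, *Capza2* and *Capzb* held between 1 and 4 GC boxes, no CCAAT and no TATAAA. A match is a description of the letters and not a measured binding site.

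*Cd2ap* was read first, as the gene targeted in the mutants. Its signal in podocytes was 2108, 1670 and 1546 in wild type arrays A, B and C, and 1512, 1503 and 1478 in those labelled mutant. All 3 mutant values lay under all 3 wild type values, and wild type array A stood above the other podocyte arrays. The log2 difference of mutant minus wild type was −0.23 (SE 0.15, 95% interval −0.57 to 0.11, adjusted p = 0.504 by limma with Benjamini-Hochberg adjustment over all clusters tested), so it did not pass the threshold of 0.05. With 1 array left out it ran from −0.33 to −0.10 (adjusted p between 0.428 and 0.891). In mesangial cells the control arrays gave 922, 1037 and 1123 and the mutant arrays 819, 870 and 797. The groups did not overlap, and the highest control value was that of array C, the one with podocyte markers. The log2 difference was −0.31 (SE 0.10, interval −0.54 to −0.07, adjusted p = 0.151), and without control array C it was −0.24 with adjusted p = 0.270.

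In endothelial cells the order was the opposite. Wild type arrays gave *Cd2ap* signals of 840, 859 and 757, and arrays labelled mutant 891, 966 and 920. Every mutant value lay above every wild type value, with a log2 difference of 0.18 (SE 0.09, interval −0.03 to 0.39, adjusted p = 0.336). The lowest *Cd2ap* signal of a mutant array was 797, in mesangial cells, so the transcript was read in every array labelled mutant. Where the probes of this cluster lie relative to the altered part of the allele is not given in the sources used here, so this readout does not check the genotype labels, and directions of change rest on them.

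Across cell types *Cd2ap* was highest in podocytes. The mean signal was 1775 ± 295 (SD, n = 3) in wild type podocytes, 1027 ± 101 in control mesangial cells and 819 ± 53.9 in wild type endothelial cells. Podocytes exceeded mesangial cells by a log2 difference of 0.78 (SE 0.13, adjusted p = 0.00172, 1.72-fold) and endothelial cells by 1.11 (SE 0.13, adjusted p = 0.000145, 2.15-fold). Mesangial and endothelial cells, the neighbours at the lower end of this order, differed by 0.32 (interval 0.03 to 0.62), which did not pass after adjustment (adjusted p = 0.0855, and 0.0349 with all 18 arrays in 1 fit). The column headers read +/- for the mesangial controls and +/+ for the other controls. The part of that in the control differences of *Cd2ap* against mesangial cells was not tested. The mutant arrays share no sample with the controls. There podocytes, at 1498 ± 17.6, exceeded mesangial cells, at 829 ± 37.6, by 0.85 (adjusted p = 0.000171) and endothelial cells, at 926 ± 37.5, by 0.69 (adjusted p = 0.000338), and mesangial minus endothelial was −0.16 (adjusted p = 0.275).

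**Figure D1:**
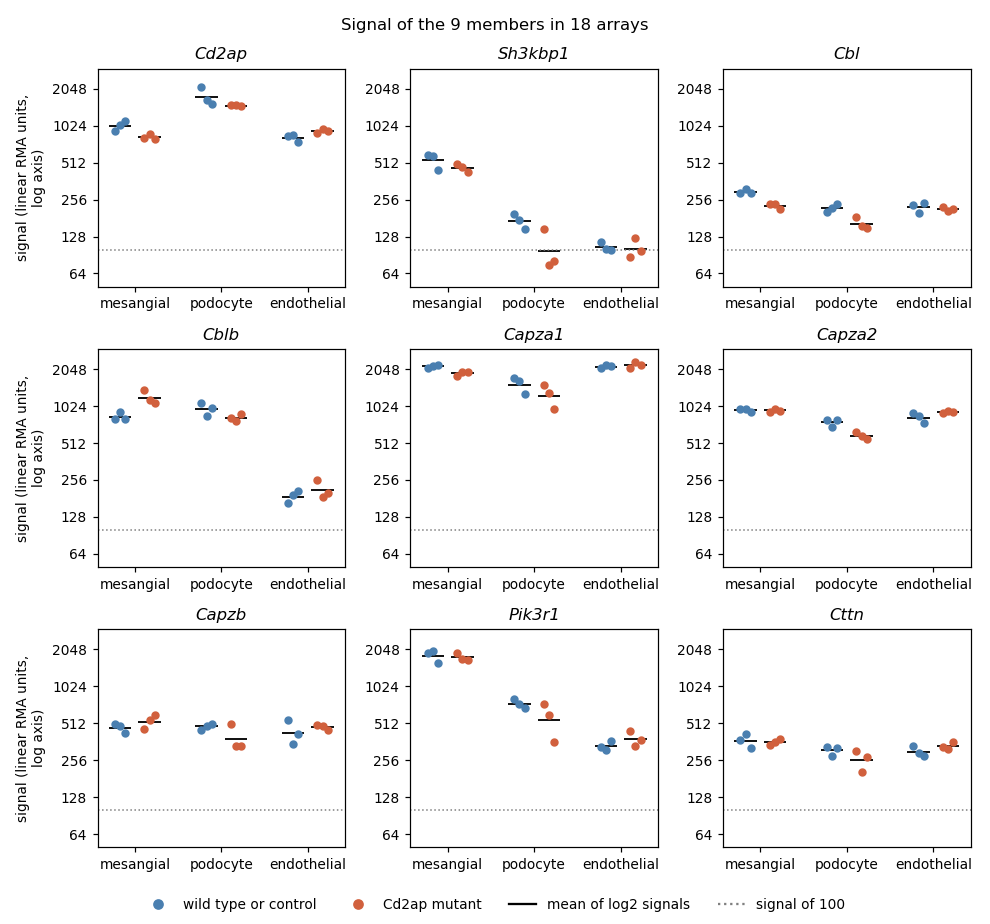
Signal of each of the 9 genes in the 18 arrays, on a log axis of linear RMA units, by cell type, with wild type or control arrays in blue, Cd2ap mutant arrays in red, bars at the mean of the log2 signals and a dotted line at 100. *Cd2ap* is highest in podocytes (1478 to 2108), while *Sh3kbp1*, *Cblb* and *Pik3r1* are far lower in endothelial than in mesangial cells.

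*Sh3kbp1*, the paralog, had another order of cell types. Control mesangial arrays gave 596, 586 and 451, wild type podocytes 197, 175 and 149, and wild type endothelial cells 117, 101 and 99.3. The 3 groups did not overlap. Podocytes minus mesangial cells was −1.65 on the log2 scale (mesangial 3.13-fold higher, adjusted p = 3.73e-05). Mesangial cells were above endothelial cells by 2.36 (SE 0.14, 5.12-fold, adjusted p = 2.08e-06), and podocytes were above endothelial cells by 0.71 (adjusted p = 0.00336). The mesangial markers followed the same order, with sums between 12075 and 13193 in control mesangial arrays, between 3930 and 4960 in wild type podocyte arrays and between 1075 and 1156 in wild type endothelial arrays, and their part in the podocyte value was not tested. In the mutants, mesangial cells (498, 474 and 432) again stood above podocytes (148, 75.5 and 80.8) and endothelial cells (87.5, 124 and 97.6). Mutant podocytes and endothelial cells overlapped, with a log2 difference of −0.07 (interval −0.61 to 0.46, adjusted p = 0.816). Over the 18 arrays the log2 signals of *Cd2ap* and *Sh3kbp1* had a Pearson's r of −0.21, a description over arrays of 3 cell types.

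The podocyte arrays held the greatest genotype difference of *Sh3kbp1*. It was lower in mutant than in wild type podocytes by 0.83 on the log2 scale (SE 0.26, interval −1.45 to −0.22, 1.78-fold), with every mutant array below every wild type array by a margin as small as that between 148 and 149. After adjustment over all clusters p was 0.234. Mutant array A was the high one, and without it the difference was −1.14 with adjusted p = 0.0290. Arrays B and C, at 75.5 and 80.8, read near the array medians, so the sizes of both differences are not exact. The difference was −0.21 in mesangial cells (interval −0.52 to 0.10, adjusted p = 0.405) and −0.05 in endothelial cells (interval −0.38 to 0.28, adjusted p = 0.874). The podocyte difference minus the endothelial one was −0.78 (interval −1.42 to −0.15, adjusted p = 0.135).

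Endothelial markers were lower in the same mutant podocyte arrays. The endothelial marker sum was 5216, 6183 and 4615 in wild type podocyte arrays and 2889, 1326 and 882 in mutant ones. Of these markers *Kdr*, the main Vegf receptor of endothelium, read between 535 and 664 in wild type arrays and 244, 75.4 and 65.2 in mutant ones. The mesangial marker sum was 4960, 4364 and 3930 in wild type arrays and 4689, 4180 and 1356 in mutant ones, so that only mutant array C lay outside the wild type range, and podocyte markers summed to between 14732 and 16622 and between 13202 and 16296. *Sh3kbp1* is also X-linked, and *Ddx3y*, a Y-linked gene, read 428 in mutant podocyte array B and 545 in wild type array A but at most 34.5 in the other 4 podocyte arrays. The part of these differences in the *Sh3kbp1* result was not tested.

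**Figure D2:**
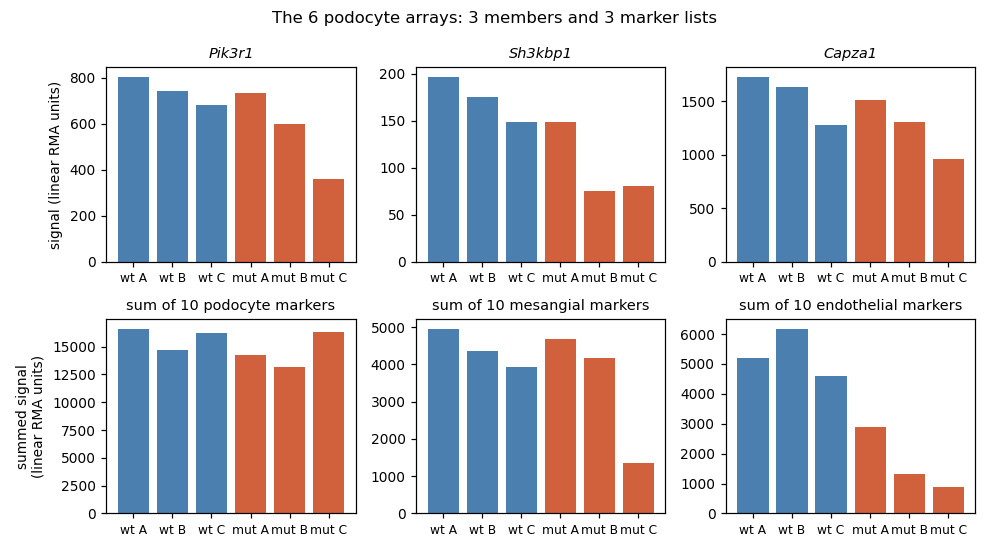
Bars of linear RMA signal in the 6 podocyte arrays (wild type blue, mutant red), for *Pik3r1*, *Sh3kbp1* and *Capza1* in the upper row and for the summed signal of 10 podocyte, 10 mesangial and 10 endothelial markers in the lower row. Mutant array C, lowest in *Pik3r1* (359) and *Capza1* (963), also has the lowest mesangial (1356) and endothelial (882) sums, while the podocyte sums stay between 13202 and 16622.

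The ligases *Cbl* and *Cblb*, which tag activated receptors with ubiquitin for removal, lay on opposite sides of their controls in mesangial cells. *Cbl* read 292, 312 and 289 in control mesangial arrays and 234, 237 and 214 in mutant ones, with no overlap and a log2 difference of −0.38 (SE 0.08, interval −0.58 to −0.18, adjusted p = 0.0680). *Cblb* read 798, 916 and 808 in the controls and 1387, 1152 and 1082 in the mutants. There too the groups did not overlap, with the mutants higher by 0.52 on the log2 scale (SE 0.12, interval 0.23 to 0.80, 1.43-fold, adjusted p = 0.0728). Neither passed the threshold in the fit within the cell type. Both passed when the signal minimum had to be met in all arrays of a group (adjusted p = 0.0442 for *Cbl* and 0.0456 for *Cblb*) and when all 18 arrays were fitted together (0.0427 and 0.0494). Without control array C they were −0.40 (adjusted p = 0.105) and 0.49 (adjusted p = 0.139).

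In podocytes *Cbl* was 204, 218 and 236 in wild type and 184, 157 and 151 in mutant arrays, again without overlap. The difference was −0.43 (SE 0.13, interval −0.74 to −0.11, adjusted p = 0.232). For *Cblb* the podocyte groups overlapped, at 1087, 847 and 996 in wild type and 812, 774 and 887 in mutant arrays (−0.24, interval −0.56 to 0.09, adjusted p = 0.474). The *Cblb* difference in podocytes minus that in mesangial cells was −0.76 (SE 0.20, interval −1.18 to −0.34, adjusted p = 0.110). Endothelial differences were −0.05 for *Cbl* and 0.18 for *Cblb*, with adjusted p of 0.826 and 0.525.

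*Cblb* separated endothelium from the other cells. Wild type endothelial arrays read 165, 192 and 206 and mutant ones 258, 184 and 201, while no mesangial or podocyte array was under 774. In controls, podocytes exceeded endothelial cells by 2.38 on the log2 scale (5.2-fold, adjusted p = 1.03e-06) and mesangial cells did so by 2.17 (4.49-fold, adjusted p = 1.44e-06). In mutants the same differences were 1.96 (adjusted p = 8.48e-06) and 2.50 (adjusted p = 2.07e-06). Podocytes and mesangial cells differed by 0.21 in controls (interval −0.07 to 0.49, adjusted p = 0.231) and by −0.54 in mutants (adjusted p = 0.0240). The mutant call was lost without mutant mesangial array A (adjusted p = 0.0895) or B (0.0564), without mutant podocyte array B (0.0588), after quantile normalization (0.111) and with array weights (0.0617). *Cbl* varied less. Control mesangial cells, at 297 ± 12.5, were above wild type podocytes, at 219 ± 16.1 (podocytes minus mesangial cells −0.44, adjusted p = 0.0102), and above endothelial cells, at 223 ± 22.3 (0.42, adjusted p = 0.0110), and the lower pair differed by −0.02 (interval −0.25 to 0.21). In mutants, podocytes were below mesangial cells by 0.48 (adjusted p = 0.0104) and below endothelial cells by 0.40 (adjusted p = 0.0158), the latter lost after quantile normalization (0.170) and without mutant endothelial array A (0.0557).

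The capping protein consists of an alpha subunit, encoded by *Capza1* or *Capza2* in these cells, and the beta subunit encoded by *Capzb*. *Capza1* read 1729, 1628 and 1273 in wild type podocytes and 1508, 1304 and 963 in mutant ones, so the groups overlapped (−0.31, interval −0.78 to 0.16, adjusted p = 0.520). The lowest value was that of mutant array C, which also had the lowest endothelial and mesangial marker sums. A second *Capza1* cluster followed the first with r = 0.99 over the 18 arrays, and gave −0.46 in podocytes (adjusted p = 0.355). *Capza2* read 784, 696 and 783 in wild type podocytes and 632, 582 and 548 in mutant ones, without overlap. Its difference was −0.36 (SE 0.12, interval −0.65 to −0.07, adjusted p = 0.267).

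In endothelial cells *Capza2* lay the other way, at 892, 843 and 743 in wild type and 906, 936 and 924 in mutant arrays (0.16, interval −0.06 to 0.39, adjusted p = 0.402). All mutant values were above all wild type values. The test of the difference between the podocyte and the endothelial genotype differences gave −0.52 (SE 0.12, interval −0.79 to −0.26, adjusted p = 0.0416). This was the 1 member called among the 3 tests between genotype differences, and 2.11% of all clusters were called in the test of podocytes against endothelial cells. The call was lost under 2 of the other settings, to adjusted p = 0.114 after quantile normalization and to 0.0549 with array weights, and when any 1 of the 12 arrays was left out except mutant podocyte array A and wild type endothelial array A, with adjusted p between 0.0513 and 0.111. The median of this difference over all clusters tested was −0.11, which became −0.21 with array medians subtracted and 0.00 after quantile normalization. In mesangial cells *Capza2* differed by −0.01 (interval −0.19 to 0.17).

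*Capzb* was the member with no call in any comparison of cell types. Wild type podocytes read 452, 491 and 509 and mutant ones 507, 332 and 337, so that mutant array A lay with the wild type and arrays B and C below it (−0.33, interval −0.76 to 0.10, adjusted p = 0.457). Mesangial arrays lay between 427 and 598 and endothelial arrays between 347 and 542, with genotype differences of 0.17 and 0.15 (adjusted p = 0.480 and 0.621). Across controls the 3 cell type means were 484 ± 29.4 in podocytes, 471 ± 39.2 in mesangial cells and 436 ± 98.2 in endothelial cells, and the widest difference was 0.17 (interval −0.17 to 0.51). Mutant podocytes minus mesangial cells was −0.46 (adjusted p = 0.0734), which passed without mutant podocyte array A (−0.66, adjusted p = 0.00566), with array medians subtracted (0.0494) and with all 18 arrays in 1 fit (0.0417). Without that array, mutant podocytes minus endothelial cells passed as well (−0.51, adjusted p = 0.0119).

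The alpha subunits were lower in podocytes than in mesangial cells. *Capza1* podocytes minus mesangial cells was −0.49 in controls (adjusted p = 0.0110) and −0.61 in mutants (adjusted p = 0.0165), and podocytes minus endothelial cells was −0.49 (adjusted p = 0.00769) and −0.83 (adjusted p = 0.00210). Mesangial and endothelial cells differed by 0.00 in controls (interval −0.25 to 0.26). *Capza2* podocytes were below mesangial cells by 0.34 in controls (adjusted p = 0.0262) and by 0.69 in mutants (adjusted p = 0.000794). Against endothelial cells it was −0.13 in controls (adjusted p = 0.330) and −0.65 in mutants (adjusted p = 0.000614). The *Capza1* call in mutants against mesangial cells was lost without mutant mesangial array B (adjusted p = 0.0553) or C (0.0544). The control call of *Capza2* was lost without control mesangial array A (0.0681) or B (0.0799), without wild type podocyte array B (0.0899) and with quantile normalization (0.0677).

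*Pik3r1* encodes p85 alpha, the regulatory subunit that holds the PI3-kinase catalytic subunit at phosphorylated receptors. It had a steep and ordered profile. Control mesangial arrays read 1906, 1992 and 1587, wild type podocytes 805, 742 and 683, and wild type endothelial cells 327, 308 and 364, without overlap. Podocytes lay below mesangial cells by 1.30 on the log2 scale (2.45-fold, adjusted p = 4.42e-05) and above endothelial cells by 1.16 (2.23-fold, adjusted p = 5.63e-05), and mesangial cells exceeded endothelial cells by 2.45 (SE 0.12, 5.47-fold, adjusted p = 3.53e-07). The mesangial marker sums given for *Sh3kbp1* followed the same order, and their part in the podocyte value was not tested here either. Mutant mesangial arrays (1931, 1728 and 1695) stayed above the other mutant groups, at 2.22 over endothelial cells (adjusted p = 7.28e-05). Mutant podocytes spread from 359 to 734, and their difference from mutant endothelial cells (447, 337 and 373) was 0.50 (interval −0.02 to 1.02, adjusted p = 0.102). It passed without mutant podocyte array C (0.79, adjusted p = 0.00375), after quantile normalization (0.76, adjusted p = 0.0175) and with all 18 arrays in 1 fit (adjusted p = 0.0389).

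The genotype difference of *Pik3r1* in podocytes was −0.45 (SE 0.25, interval −1.04 to 0.13, adjusted p = 0.454), with mutant values of 734, 601 and 359. With 1 array left out it ran from −0.67 to −0.16 (adjusted p between 0.153 and 0.773). Mutant array A lay within the wild type range and array C was the lowest. The plot of the podocyte arrays shows that array C was also lowest in the mesangial marker sum, and *Pik3r1* is higher in mesangial cells. The part of that in the result was not tested. In mesangial and endothelial cells the differences were −0.03 (interval −0.30 to 0.24) and 0.20 (interval −0.09 to 0.50). Over the 18 arrays *Pik3r1* followed *Sh3kbp1* with r = 0.94, again a description over arrays that share 3 cell types.

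*Cttn* encodes cortactin, which binds the Arp2/3 complex and stabilises branched actin. Its signals lay between 207 and 422 in all arrays. In podocytes it read 329, 276 and 324 in wild type and 302, 207 and 272 in mutant arrays, which overlapped (−0.27, interval −0.66 to 0.13, adjusted p = 0.513). In mesangial and endothelial cells the differences were −0.04 (adjusted p = 0.882) and 0.16 (adjusted p = 0.452). The 1 cell type call in the fits as designed was in the mutants, where podocytes (260 ± 48.6) were below mesangial cells (361 ± 21.0) by 0.49 (adjusted p = 0.0307). That call was lost with quantile normalization (adjusted p = 0.115) and without any 1 of the 3 mutant mesangial arrays or mutant podocyte array B, with adjusted p between 0.0595 and 0.0951. Mutant podocytes minus endothelial cells was −0.38 (adjusted p = 0.0547) and passed with the signal minimum in all arrays of a group (0.0497), with array medians subtracted (0.0166), with all 18 arrays in 1 fit (0.0290) and without mutant podocyte array A (0.0174). Control mesangial minus endothelial cells passed with array weights (0.39, adjusted p = 0.0272) and without control mesangial array C.

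Counted together, none of the 9 members passed the adjusted test for genotype in mesangial cells (2.92% of all clusters called), podocytes (0.0578%) or endothelial cells (1.29%). At an unadjusted p under 0.05, the count was 3, 3 and 0, where 21.7%, 14.3% and 18.5% of all clusters had such a p. The screen used in the study, a p under 0.05 with a fold change over 1.5, taken here with the unadjusted p of limma, took 0 members in mesangial cells (5.19% of clusters passed it), 1 in podocytes (5.61%), which was *Sh3kbp1*, and 0 in endothelial cells (3.82%). The genotype groups did not overlap for 4 members in mesangial cells, 4 in podocytes and 2 in endothelial cells, where 28.6%, 21.3% and 25.1% of all clusters tested did not overlap. In podocytes 9 of 9 members were lower in the mutants, with a median log2 difference of −0.33 against −0.04 over all clusters tested. The medians were −0.04 against −0.02 in mesangial cells and 0.16 against 0.07 in endothelial cells, with 7 of 9 higher in the latter. Without control mesangial array C the mesangial difference was −0.34 for *Sh3kbp1*, −0.17 for *Capza1*, −0.03 for *Capza2*, 0.10 for *Capzb*, −0.13 for *Pik3r1* and −0.14 for *Cttn*, and no member was called.

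The podocyte counts rest on which arrays and which estimate of spread are used. With all 18 arrays in 1 fit, 837 clusters (6.91%) were called in podocytes in place of 7, and 3 members were among them: *Sh3kbp1* (adjusted p = 0.0270), *Cbl* (0.0188) and *Capza2* (0.0220). The fold changes are the same in both fits. Without mutant podocyte array A, which held the highest endothelial marker sum of the mutant podocyte arrays, 344 clusters (2.88%) and 1 member, *Sh3kbp1*, were called.

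**Figure D3:**
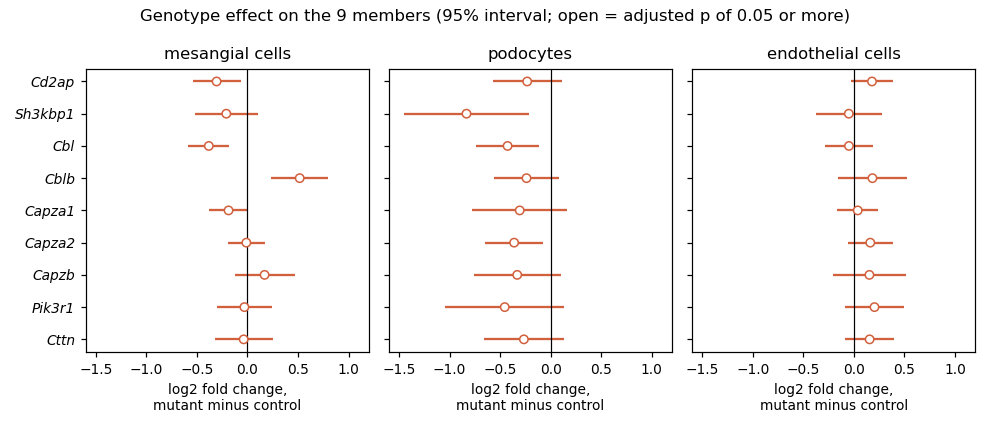
Log2 difference of mutant minus control for the 9 genes in mesangial cells, podocytes and endothelial cells, with 95% intervals of the limma fit. All symbols are open, which marks an adjusted p of 0.05 or more, and all 9 podocyte values lie left of 0, from −0.23 for *Cd2ap* to −0.83 for *Sh3kbp1*.

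The tests between genotype differences added little. For podocytes against mesangial cells 0 members were called (0.717% of clusters), with 2 at an unadjusted p under 0.05 (12.0% of clusters). For mesangial against endothelial cells 0 were called as well (1.07%), with 2 at that p (15.9% of clusters), among them *Cd2ap* (−0.48, interval −0.81 to −0.16, adjusted p = 0.144). For podocytes against endothelial cells *Capza2* was called, as described, and 7 members had an unadjusted p under 0.05 (23.4% of clusters). Without mutant podocyte array A the count called there was 5 (*Sh3kbp1*, *Cbl*, *Capza2*, *Capzb* and *Pik3r1*), and between podocytes and mesangial cells it was 1, *Sh3kbp1*. The share of all clusters called rose as well without this array, to 13.8% and 3.14%. The 3 contrasts share arrays, so their results are not independent. The headers of the mesangial controls read +/- and those of the other controls +/+. The part of that in the mesangial genotype differences, and in the contrasts with them, was not tested. Without control mesangial array C the *Cd2ap* difference in mesangial minus endothelial cells was −0.42 (adjusted p = 0.286) and that of *Cblb* in podocytes minus mesangial cells −0.73 (adjusted p = 0.137).

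Cell type differences were called more often. In controls, 6 members were called between podocytes and mesangial cells (27.9% of all clusters), 5 between podocytes and endothelial cells (38.8%) and 4 between mesangial and endothelial cells (32.0%). In mutants the counts were 8 (29.0%), 5 (47.1%) and 3 (22.8%). *Cd2ap* was the 1 member called higher in podocytes than in mesangial cells, in both genotypes, while 5 were called lower in controls and 7 in mutants. *Sh3kbp1*, *Cblb* and *Pik3r1* were called higher in mesangial than in endothelial cells in both genotypes, and *Cbl* in controls. Without control mesangial array C the control counts were 6 between podocytes and mesangial cells (26.0% of all clusters) and 5 between mesangial and endothelial cells (29.1%), *Cttn* being the one added (0.41, adjusted p = 0.0364). Podocytes minus mesangial cells then gave 0.85 for *Cd2ap*, −1.78 for *Sh3kbp1*, −0.46 for *Cbl*, 0.18 for *Cblb*, −0.47 for *Capza1*, −0.36 for *Capza2*, −0.03 for *Capzb*, −1.39 for *Pik3r1* and −0.37 for *Cttn*. Mesangial minus endothelial cells gave 2.49 for *Sh3kbp1*, 2.55 for *Pik3r1*, 2.19 for *Cblb* and 0.44 for *Cbl*, and between −0.01 and 0.26 for *Cd2ap* and the capping protein subunits. Without mutant mesangial array B the mutant count between podocytes and mesangial cells was 5 (18.9% of all clusters).

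**Figure D4:**
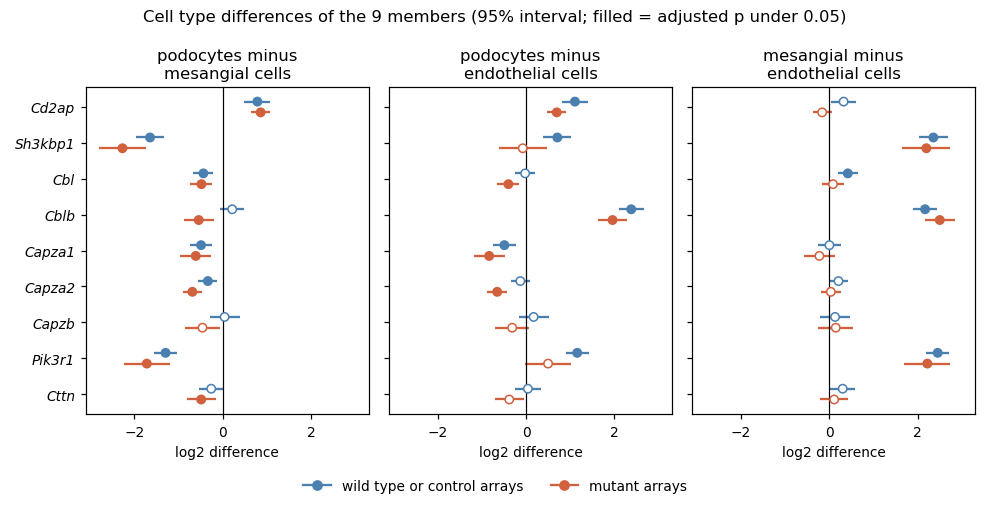
Log2 differences between cell types for the 9 genes, in controls (blue) and mutants (red), with 95% intervals, where filled symbols mark an adjusted p under 0.05. *Cd2ap* lies to the right of 0 in both podocyte comparisons, and *Sh3kbp1*, *Cblb* and *Pik3r1* lie between 2.17 and 2.50 for mesangial minus endothelial cells in both genotypes.

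For likeness over the 18 arrays 11131 clusters were compared, each of which reached the signal minimum in at least 1 array. The genes whose log2 signals followed *Cd2ap* most closely were *Sh3bgrl2* (Pearson's r = 0.976), *Uprt* (0.968), *Raver2* (0.965), *Rad21* (0.963) and *Galnt10* (0.962). *Uprt*, for example, read 1118 ± 58.3 in wild type and 771 ± 112 in mutant podocytes, and its means in the other groups lay between 271 and 360. Those closest to *Sh3kbp1* were *Pla2g4a* (0.983), *Slc8a1* (0.976), *Sorbs2* (0.976), *Gstm2* (0.976) and *Frk* (0.975). *Pla2g4a*, a cytosolic phospholipase, read 744 ± 162 in control mesangial cells, 156 ± 23.0 in wild type podocytes and 61.2 ± 8.33 in wild type endothelial cells.

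Further reported partners of the adaptors formed a list of 25 genes. In podocytes against mesangial cells, 7 of the 20 tested in controls were called higher and 4 lower (27.9% of all clusters called), with a median log2 difference of 0.14 against −0.03 over all clusters. The slit diaphragm gene *Nphs1* (nephrin, 3.85), the kinase gene *Fyn* (1.91) and *Ddn* (dendrin, 1.33) were higher, and *Asap1* (−1.14) and *Spry2* (−1.10) lower. Control mesangial arrays read 58.2, 55.6 and 168 for *Nphs1* and between 38.7 and 48.0 for *Ddn*, under the array medians but for array C of *Nphs1*, so the sizes of these 2 differences of mean log2 signals are not exact. That of *Nphs1* was 2.00 over the mean of its clusters and 4.37 without array C, where *Fyn* gave 2.18 and *Spry2* −1.42. Against endothelial cells 6 were called higher and 3 lower (38.8% of all clusters called), among them *Actn4*, an actin crosslinker, at 1.02 and the phosphatase gene *Inpp5d* at −1.25. In control mesangial minus endothelial cells 3 were called higher and 4 lower (32.0% of all clusters called). There *Actn4* was among the higher (1.21 to 1.44 over the alternatives) and *Fyn* among the lower (−2.20 to −1.79). For genotype, none of 18 was called in mesangial cells and none of 19 in podocytes. In endothelial cells *Inpp5d* rose by 0.95 (SE 0.13, adjusted p = 0.0150), 1 of 17 tested, and its podocyte difference was lower than the endothelial one by 1.44 (adjusted p = 0.00381), a call that every alternative kept. The endothelial call of *Inpp5d* was lost without mutant array A or C or wild type array C (adjusted p up to 0.0757) and with no signal minimum (0.0521). *Inpp5d* is best known from blood cells. It read 227, 248 and 194 in wild type endothelial arrays and 466, 372 and 459 in mutant ones. The sum of 10 leukocyte markers was 619, 726 and 777 in the former and 1293, 910 and 666 in the latter, and *Tyrobp* among them read 108, 179 and 201 against 475, 274 and 151. Both lay above the wild type range in mutant arrays A and B and within it in C, and 6 of the 10 markers were below 100 in all mutant endothelial arrays. In podocyte arrays the leukocyte sum was 1124, 1421 and 1178 in wild type and 1402, 762 and 602 in mutant ones. The endothelial sums were lower in mutant podocyte arrays, as given above. The part of these sums in the *Inpp5d* differences was not tested. The *Actn4* difference in mesangial cells minus that in endothelial cells was −0.77 (adjusted p = 0.0378), and it was lost when any 1 of 8 of the 12 arrays was left out (adjusted p up to 0.114) but kept without control mesangial array C (0.0272).

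The list of capping protein regulators, cortactin relatives and the Arp2/3 complex held 30 genes, of which 29 were on the array. *Add3*, an adducin that caps actin filaments at the membrane skeleton, fell in mutant mesangial cells by 0.99 (SE 0.15, adjusted p = 0.0290), the 1 call for genotype among 24 tested there. It was lost without any 1 of the 6 arrays except mutant array B (adjusted p up to 0.111, and 0.0517 without control array C) and with no signal minimum (0.0521). Its mesangial difference was lower than the endothelial one by 1.34 (adjusted p = 0.00112) and its podocyte difference by 0.77 (adjusted p = 0.0408). The first of these was kept in every alternative, and the second was lost in 11 of 19, with adjusted p up to 0.109. *Capg*, a capping protein of another family, was 0.71 higher in mutant mesangial cells with an adjusted p of 0.050, at the threshold but not under it, and 0.75 higher in endothelial cells (adjusted p = 0.0715). No gene of this list was called for genotype among the 24 tested in podocytes or the 25 in endothelial cells. Between cell types in controls, 10 of 26 were called lower in podocytes than in endothelial cells and 3 higher (38.8% of all clusters called), among them *Cttnbp2* (2.02), a cortactin binding protein, *Coro1c* (−1.16) and *Add3* (−1.01). Between podocytes and mesangial cells 2 were called higher, *Cttnbp2* at 2.05 among them, and 5 lower (27.9% of all clusters called).

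For the PI3-kinase and Akt list of 20 genes, no genotype difference was called in any cell type (19, 19 and 17 tested). *Pik3r3*, another regulatory subunit, was 1.13 lower on the log2 scale in mutant podocytes (adjusted p = 0.102) and its podocyte difference was lower than the endothelial one by 1.34 (adjusted p = 0.0237), which was lost without mutant endothelial array A or C, wild type endothelial array C or wild type podocyte array A (adjusted p up to 0.0650). Endothelial marker sums were also lower in mutant podocyte arrays (882 to 2889) than in wild type ones (4615 to 6183). The part of that in the 2 *Pik3r3* values was not tested. Between podocytes and endothelial cells in controls 7 of 19 were called higher and 4 lower (38.8% of all clusters called). *Akt2* (1.78) and *Irs1* (1.10) were higher in podocytes, and *Inpp4b* (−1.68), *Foxo1* (−1.44) and *Pik3r3* (−1.10) were lower. Between mesangial and endothelial cells *Irs1* (1.51) and *Akt2* (1.21) were higher and the catalytic subunit gene *Pik3cb* (−1.56) lower, among 6 called higher and 4 lower (32.0% of all clusters called). Without control mesangial array C these were 1.72, 1.22 and −1.85.

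The Cbl list held 29 relatives, adaptors and receptor substrates, with 27 on the array. *Pdgfrb*, the Pdgf receptor of mesangial cells, fell in mutant mesangial cells by 0.58 (SE 0.10, adjusted p = 0.0420), the 1 call among 19. It was lost without any 1 of the 6 arrays (adjusted p between 0.0679 and 0.146), with no signal minimum (0.0543) and with all 18 arrays in 1 fit (0.158). *Pdgfrb* is also among the mesangial markers, whose sums were lower in mutant than in control mesangial arrays, as given above. In podocytes none of 18 was called, and 5 passed the study's screen (5.61% of all clusters): *Kdr* (−2.44), *Flt1* (−1.52), *Pdgfra* (−1.26), *Pdgfrb* (−1.09) and *Csf1r* (0.62), with adjusted p between 0.134 and 0.220. *Kdr* in mutant arrays B and C (75.4 and 65.2) and *Csf1r* in wild type arrays (59.0 to 77.9) read near the array medians, so the sizes of these 2 differences are not exact. *Kdr* and *Flt1* are receptors of endothelium and *Pdgfra* and *Pdgfrb* of mesangial cells in these same arrays, where mesangial minus endothelial cells gave −3.70 and −3.20 for the first pair and 4.27 and 4.76 for the second. Without control mesangial array C, which read 935 for *Kdr* against 77.6 and 81.1 in arrays A and B, the first pair gave −4.89 and −3.99, and the size of the *Kdr* value is a lower bound. The endothelial arrays read at most 65.0 for *Pdgfra* and *Pdgfrb*, so the values of the second pair can be read only as lower bounds. The endothelial and mesangial marker sums of the podocyte arrays stand above, and their part in these values was not tested. In endothelial cells none of 16 was called.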

How the data were processed

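Amplified RNA of sorted glomerular cells was hybridised to 18 arrays, and RNA-seq was not analysed here. The authors deposited 1 linear intensity per transcript cluster and array, which the sample records ascribe to RMA (background correction, quantile normalization and a summary over probes) in Expression Console. The table holds 18 further columns of normalized values, which were not used here. The series text speaks of Exon arrays and GeneBASE, in contrast to the header of the table. The header names mm9, so no gene coordinates were taken from the RefSeq table of GRCm38.p6, which gave the promoter windows and their own positions.

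Each column was matched to its group by cell type and genotype. Log2 intensities, with no pseudocount, were fitted in limma 3.58.1 (lmFit, eBayes; R 4.3.3) without covariates. Genotypes were compared within the 6 arrays of a cell type, cell types within the 9 control or 9 mutant arrays, and genotype differences between cell types over all 18. A cluster was tested when it reached a signal of 100 in at least 1 array of the fit. P-values were adjusted by Benjamini-Hochberg over all clusters tested, and called means an adjusted p under 0.05. Precision is limited by having 3 arrays a group. The code was tested on simulated data.

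Named genes are the 9 members, the called genes of 4 lists (at most the 6 largest differences per list and comparison), the 5 genes most like *Cd2ap* and like *Sh3kbp1* by Pearson's r, and the cell type markers. Some genes that this rule would take in are not reported here. List genes that are named without a call were chosen after their values were seen. The members and lists were chosen with earlier results of these data known. Alternatives were other signal minimums, 2 array scalings, eBayes with trend and robust estimation, array weights, all arrays in 1 fit, the mean over a gene's clusters, the study's screen of p and fold change and each array left out. Scanner files were not analysed here, so background correction, slide and scan date were not varied.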

Additional observations from a re-analysis of the deposited data

Results flagged for a closer look

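The genotype difference of *Capza2* was tested between podocytes and endothelial cells. It was −0.36 on the log2 scale in podocytes and 0.16 in endothelial cells, and the interaction contrast of limma gave −0.52 (SE 0.12, adjusted p = 0.0416). The call was lost after quantile normalization (adjusted p = 0.114), with array weights (0.0549) and when any 1 of 10 of the 12 arrays was left out. Every mutant podocyte array lay below every wild type podocyte array, and every mutant endothelial array lay above every wild type one. No other member was called in the 3 contrasts of this kind.

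Among the list genes, the same kind of contrast was called 5 times, for 3 of 86 tested in podocytes minus endothelial cells (2.11% of all clusters called) and for 2 of 86 in mesangial minus endothelial cells (1.07%). The podocyte minus endothelial genotype difference was −1.44 for *Inpp5d*, −1.34 for *Pik3r3* and −0.77 for *Add3*, and the mesangial minus endothelial one was −1.34 for *Add3* and −0.77 for *Actn4*. Those of *Inpp5d* and of *Add3* in mesangial minus endothelial cells were kept in every alternative run. The marker sums, and the +/- in the headers of the mesangial controls, were not part of any alternative. That of *Add3* in podocytes minus endothelial cells was lost in 11 of 19 alternatives, that of *Actn4* in 8 of 19 and that of *Pik3r3* in 4 of 19.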

How the results depend on the processing

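The 9 members gave 1646 values under the alternatives, of which 1544 kept their direction and side of the threshold, 30 lost a call, 28 gained one and 44 changed sign. None of the 32 called values changed sign, 26 stayed called in every alternative run and 6 lost the call in some. The number of members called for genotype in mesangial cells was 2 with the signal minimum in all arrays of 1 group (6.11% of all clusters called), 1 with eBayes trend and robust estimation (6.36%) and 2 with all 18 arrays in 1 fit (4.19%), and in podocytes 3 with all 18 arrays in 1 fit (6.91%) and 1 by the study's screen of p and fold change. For podocytes against endothelial genotype differences it was 0 after quantile normalization (0.577%) and 0 with array weights (2.04%). With 1 array left out, the counts ran from 0 to 1 for genotype in podocytes (0.00% to 2.88% of all clusters), from 5 to 9 for mutant podocytes minus mesangial cells (18.9% to 36.2%), from 4 to 7 for mutant podocytes minus endothelial cells (34.8% to 51.4%), from 0 to 1 for the genotype difference in podocytes minus mesangial cells (0.327% to 3.14%) and from 0 to 5 for podocytes minus endothelial cells (0.223% to 13.8%). Over all clusters, the genotype count in podocytes was 7, 837 with all 18 arrays in 1 fit and 344 without mutant podocyte array A. The cause of these shifts was not tested. Of 151 calls of list genes, 129 were kept in every alternative, 22 were lost in some and 0 changed sign.

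Signs changed only in values close to 0 that were not called. Genotype in mesangial cells became 0.020 for *Capza2* and 0.020 for *Cttn* after quantile normalization. In endothelial cells it became 0.022 for *Sh3kbp1* and 0.023 for *Cbl* with array medians subtracted, and 0.020 for *Sh3kbp1* with array weights. In controls, *Capzb* podocytes minus mesangial cells became −0.034 with array medians subtracted, *Cbl* podocytes minus endothelial cells 0.00080 after quantile normalization, and *Capza1* mesangial minus endothelial cells −0.011 with array weights and −0.0046 over the mean of its clusters. *Capzb* genotype in mesangial minus endothelial cells became −0.072 with array medians subtracted and −0.10 with array weights.

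With 1 array left out, genotype in mesangial cells ran from −0.035 to 0.0075 for *Capza2*, from −0.13 to 0.035 for *Pik3r1* and from −0.14 to 0.056 for *Cttn*. In endothelial cells it ran from −0.19 to 0.060 for *Sh3kbp1*, from −0.13 to 0.0063 for *Cbl* and from −0.00050 to 0.075 for *Capza1*. In podocytes no sign changed, but the size moved, from −0.34 to −0.16 for *Cblb* and from −0.45 to −0.13 for *Capza1*. There *Capzb* ran from −0.53 to −0.23 and *Cttn* from −0.38 to −0.11. In controls the ranges were −0.030 to 0.089 for *Capzb* podocytes minus mesangial cells, −0.10 to 0.034 for *Cbl* and −0.019 to 0.12 for *Cttn* podocytes minus endothelial cells, and −0.019 to 0.026 for *Capza1* and −0.021 to 0.30 for *Capzb* mesangial minus endothelial cells. For *Sh3kbp1* in mutants podocytes minus endothelial cells ran from −0.38 to 0.10. Genotype in podocytes minus mesangial cells ran from −0.020 to 0.20 for *Cd2ap*, from −0.13 to 0.014 for *Cbl* and from −0.26 to 0.061 for *Capza1*, and in mesangial minus endothelial cells from −0.15 to 0.17 for *Capzb*. No paired analysis was possible because the columns carry no replicate number that GEO's labels share between groups.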
